A study of Mus musculus with 24 samples.

Results

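The 10 genes described here encode enzymes that supply a contracting muscle fibre with ATP, and myoglobin, which stores oxygen. They were picked by name from a count table of 14693 genes: Ckm, Ckb and Ckmt2 (creatine kinases), Pygm (glycogen phosphorylase), Pfkm, Aldoa, Pgam2 and Eno3 (glycolysis), Ldha (lactate dehydrogenase) and Mb (myoglobin). All 10 were in the table and all 10 passed the filter on low counts, which left 12994 genes for testing.

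Creatine kinases move phosphate between creatine phosphate and ADP, so that ATP can be remade within moments of its use. Glycogen phosphorylase releases glucose units from stored glycogen, glycolysis turns them into pyruvate, and lactate dehydrogenase converts pyruvate into lactate. Muscle fibres use their own isoforms for several of these steps, and myoblasts switch to them as they leave the cell cycle and fuse.

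The cells were C2C12, an established line of wild-type mouse myoblasts, kept in 10% fetal bovine serum and moved to 2% horse serum to differentiate into myotubes. While they differentiated they received vehicle, linoleic acid (LA, the fatty acid 18:2n6) at 100 µM on bovine serum albumin, or recombinant mouse ANGPTL4, a secreted inhibitor of lipoprotein lipase, at 10 ng/mL. RNA was taken at day 2 or day 6, which gave 6 groups of 4 libraries: vehicle, LA and ANGPTL4 at each day. The study asked which genes respond to LA and to ANGPTL4, and its title names Wnt/β-catenin signalling and differentiation. What the vehicle contained was not given in the labels. Nothing states that the replicates were separate cultures, so the p-values below measure the spread between these libraries, which may be technical.

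Libraries held 6100684 to 25049912 counts. Replicates of the same group correlated at 0.986 to 0.997 on log2 CPM (a gene's counts scaled to the library's total, itself corrected for composition by edgeR's TMM factors). On the second principal component, which held 9.46% of the variance, 4 libraries lay apart from their groups. At day 2, LA replicate 3 (-19.3) lay among ANGPTL4 libraries (-19.7 to -15.2), away from the other LA libraries (1.32 to 4.07), and ANGPTL4 replicate 4 (-4.61) lay toward LA. At day 6, ANGPTL4 replicate 1 (18.7) and LA replicate 4 (-12.2) lay apart from theirs. Results that change without these 4 are given with the value. All 14 myotube markers looked for were in the table, with Myog at 632 to 1009.6 CPM. Expression is given in CPM as mean ± SD (n = 4) and as log2 fold change (log2FC) with its standard error (SE). A gene is called where edgeR's quasi-likelihood test gave a Benjamini-Hochberg adjusted p under 0.05 over the 12994 genes, and adjusted p-values below are from that test. CPM compares one gene between samples and is not used here to rank genes against each other. In a bulk sample, fewer myotubes and less RNA per myotube cannot be told apart.

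Upstream sequences are shown for 4 members. Ckmt2 rose most with time, and Pygm fell most with LA at day 6. Pgam2 rose with time by nearly the same amount as Pygm and also fell with LA at day 6. Its window held the most E-boxes among the members. Ldha was the member that LA raised at day 6. Each sequence is the 250 bases before a RefSeq transcription start in build GRCm38.p6. Capitals in the first 3 mark E-boxes (CANNTG, the core that myogenic basic helix-loop-helix factors bind) and matches to the MEF2 motif. Capitals in Ldha mark the core ACGTG that hypoxia-inducible factors bind, read on both strands, and it is the first of 2 annotated starts.
Ckmt2, chr13:91876886-91877135 (minus strand): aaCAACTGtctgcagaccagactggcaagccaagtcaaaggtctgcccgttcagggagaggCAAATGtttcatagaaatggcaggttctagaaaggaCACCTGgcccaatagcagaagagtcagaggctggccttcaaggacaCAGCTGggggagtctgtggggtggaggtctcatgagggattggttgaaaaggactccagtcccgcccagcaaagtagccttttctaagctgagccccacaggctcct
Pygm, chr19:6384158-6384407 (plus strand): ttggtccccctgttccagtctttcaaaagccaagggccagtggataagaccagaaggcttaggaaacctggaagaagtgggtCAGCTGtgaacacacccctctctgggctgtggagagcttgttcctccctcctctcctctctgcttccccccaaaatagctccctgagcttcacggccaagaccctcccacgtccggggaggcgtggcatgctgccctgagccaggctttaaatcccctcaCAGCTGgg
Pgam2, chr11:5803797-5804046 (minus strand): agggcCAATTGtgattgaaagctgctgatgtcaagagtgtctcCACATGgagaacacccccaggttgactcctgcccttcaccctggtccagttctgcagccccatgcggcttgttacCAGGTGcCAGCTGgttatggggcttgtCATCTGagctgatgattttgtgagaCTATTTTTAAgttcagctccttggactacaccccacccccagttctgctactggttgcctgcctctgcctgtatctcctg
Ldha, chr7:46845554-46845803 (plus strand): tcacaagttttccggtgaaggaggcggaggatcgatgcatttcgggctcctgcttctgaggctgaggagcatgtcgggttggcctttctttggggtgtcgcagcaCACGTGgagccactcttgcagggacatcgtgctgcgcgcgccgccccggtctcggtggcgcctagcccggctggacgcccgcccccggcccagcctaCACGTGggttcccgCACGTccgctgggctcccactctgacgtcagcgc

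The Pgam2 window held 5 E-boxes and 1 MEF2 match, and the Ckmt2 window held 4 E-boxes. Of 32851 mouse promoters of the same length, 66.2% held at least 1 E-box, 12.2% held 3 or more, and 2.92% held a MEF2 match. Pygm had 2 E-boxes, both CAGCTG, and 1 match to ACGTG that is not capitalised. The Ldha window shown had 5 matches to ACGTG, and the window of its other annotated start had 0. Of all promoters, 16.6% held at least 1 and 1.22% held 3 or more. These matches overlap, because each CACGTG in Ldha reads as ACGTG on both strands and is also an E-box. Ckb had 0 E-boxes and 1 MEF2 match in its window, and Ckm and Eno3 had 1 E-box each. A match is a string of letters in the window, not a measured binding site.

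In vehicle, 9 of the 10 genes were more abundant at day 6 than at day 2 and 1, Ckb, was less abundant. All 10 were called, against 45.6% of all genes tested (25.2% higher and 20.5% lower). The members' median log2FC was 0.66, and the median over all genes was 0.019. For all 10 members the 4 libraries of day 6 lay wholly above or wholly below those of day 2, which held for 40.2% of all genes. Cell markers moved between the days too: 9 of 14 myotube and 7 of 8 fibroblast markers were higher and 1 of each lower, 6 of 10 proliferation markers were lower, and 4 of 8 myoblast and reserve cell markers were lower and 1 higher. In vehicle, fibroblast markers summed to 8008 to 9448 CPM at day 2 and 10375 to 12016 CPM at day 6, and proliferation markers to 619.6 to 777 and 469 to 551 CPM. The sums of myotube markers overlapped, at 31965 to 36538 and 34227 to 38908 CPM. Those of myoblast and reserve cell markers were higher at day 6, at 1799 to 1999 and 2093 to 2202 CPM. The part of these markers in the members' values was not tested.

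Ckmt2, the sarcomeric mitochondrial creatine kinase, had the largest rise. In vehicle it was at 0.884, 1.36, 0.906 and 0.907 CPM at day 2 and at 8.51, 5.58, 5.99 and 7.16 CPM at day 6. The highest day 2 library was well below the lowest day 6 library. The log2FC was 2.71 (SE 0.21, adjusted p = 4.32e-12), a 6.54-fold rise. The gene also rose with LA (log2FC 2.8, from 0.862 ± 0.129 to 5.75 ± 1.03 CPM) and with ANGPTL4 (log2FC 3.00, from 0.817 ± 0.189 to 6.56 ± 1.53 CPM). Its counts were the lowest of the members, 8 to 104 a library, and the SD of its groups was 14.9% to 23.4% of the mean, against at most 15.3% in the other members.

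Ckm, the cytosolic muscle isoform, moved little. Vehicle libraries held 144, 131, 145 and 159.5 CPM at day 2 and 194, 175, 167 and 164 CPM at day 6. The day 2 and day 6 libraries do not overlap, and the log2FC was 0.27 (SE 0.11, adjusted p = 0.0396). It was no longer called with library totals alone or DESeq2 size factors, nor in 5 of 8 fits that left out 1 library (highest adjusted p = 0.166). With LA the day 6 libraries were not higher (log2FC -0.25, adjusted p = 0.0601; DESeq2 and limma-voom called the fall), and with ANGPTL4 the change was 0.11 (adjusted p = 0.455).

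Ckb, the brain-type isoform, which many tissues use, went the other way. Vehicle libraries held 121, 120.1, 125 and 116 CPM at day 2 and 103, 99.4, 91.9 and 99.6 CPM at day 6. Every day 6 library was below every day 2 library (log2FC -0.29, adjusted p = 9.85e-05). The fall was -0.79 with LA (adjusted p = 1.06e-12) and -0.70 with ANGPTL4 (adjusted p = 1.31e-11). Both of these were larger than in vehicle by the test of the difference itself: -0.49 for LA (adjusted p = 8.57e-05) and -0.41 for ANGPTL4 (adjusted p = 0.0382). For ANGPTL4 Ckb was the 1 member called in this test, against 0.277% of all genes (0.0847% higher, 0.192% lower). The ANGPTL4 difference was lost in 12 of 16 fits without 1 library, and in the fit with a replicate block (the replicate number as a term), in limma-voom and without the 4 libraries that lay apart (adjusted p = 0.0513).

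**Figure D1:**
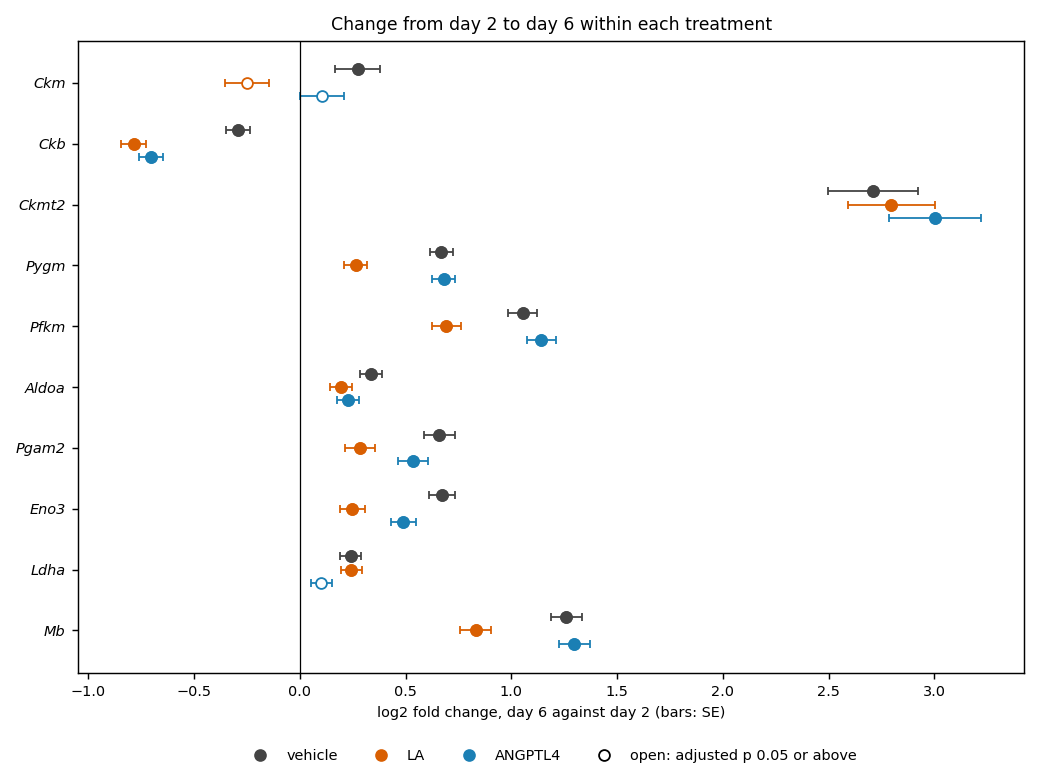
Log2 fold change from day 2 to day 6 for the 10 genes within vehicle, LA and ANGPTL4 (points, with SE bars; filled where adjusted p is under 0.05). Ckmt2 lies near 3 in every treatment, Ckb lies below 0, and the LA points of Pygm, Pfkm, Pgam2, Eno3 and Mb lie to the left of the vehicle points.

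Glycogen and glycolysis genes rose by smaller steps. Pfkm, the muscle subunit of phosphofructokinase, which sets the pace of glycolysis, went from 281, 307, 284 and 238 CPM at day 2 to 591, 597, 539.7 and 577 CPM at day 6 in vehicle. That is a log2FC of 1.05 (SE 0.07, adjusted p = 1.68e-13). Pygm (log2FC 0.67, SE 0.05), Pgam2, the muscle phosphoglycerate mutase (0.66, SE 0.07), and Eno3, the muscle enolase (0.67, SE 0.06), rose by nearly the same amount. Aldoa, which splits fructose bisphosphate, rose by 0.34 and Ldha by 0.24. Myoglobin had a larger rise than any of these, from 190.2 ± 16.3 to 456 ± 34.1 CPM (log2FC 1.26, SE 0.07, adjusted p = 1.76e-14).

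With ANGPTL4, 8 of 10 members were called between the days (7 higher, 1 lower), against 42.2% of all genes (22.4% higher, 19.8% lower), and 8 did not overlap, against 38.6%. Ckm and Ldha were not called, with log2FC 0.11 and 0.10 (adjusted p = 0.455 and 0.106). With LA, 9 of 10 were called (8 higher, 1 lower), against 43.8% of all genes (23.1% higher, 20.7% lower), and 8 did not overlap, against 37.3%. The median log2FC of the 10 was 0.26 with LA and 0.51 with ANGPTL4. The vehicle, LA and ANGPTL4 rises of Pygm were 0.67, 0.26 and 0.68, those of Eno3 0.67, 0.25 and 0.49, and those of Mb 1.26, 0.83 and 1.30. In these 3 genes, picked after their values were seen, the LA value is the smallest. In Ckmt2 (2.71, 2.8 and 3.00) and Ldha (0.24, 0.24 and 0.10) it is not.

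Other genes of these pathways are given beside the 25.2% of all genes that were higher and the 20.5% that were lower in vehicle between day 2 and day 6. Of 8 further genes of creatine and adenylate metabolism 4 were higher and 1 lower. Ampd1, the muscle AMP deaminase, rose from 2.26 ± 0.349 to 12.3 ± 0.661 CPM (log2FC 2.43), and Gatm, the first enzyme of creatine synthesis, fell from 196 ± 11.3 to 91.4 ± 7.12 CPM (log2FC -1.10). Of 19 other glycogen genes 11 were higher and 1 lower. Ppp1r3a, which targets a phosphatase to glycogen in muscle, rose from 4.48 ± 1.13 to 26.1 ± 3.98 CPM (log2FC 2.57), and Phka2 fell by 0.60 on the log2 scale. Of 23 other glycolysis genes 10 were higher and 2, Pfkp and Pfkfb2, lower, a total share called near that of all genes. Of 9 transporter genes 4 were higher, with Slc16a3, a lactate exporter, up by 0.69 (adjusted p = 8.40e-06), and 0 were lower. All 13 fast fibre genes and 10 of 12 slow fibre genes were higher, and their part in the members' rise was not tested.

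**Figure D2:**
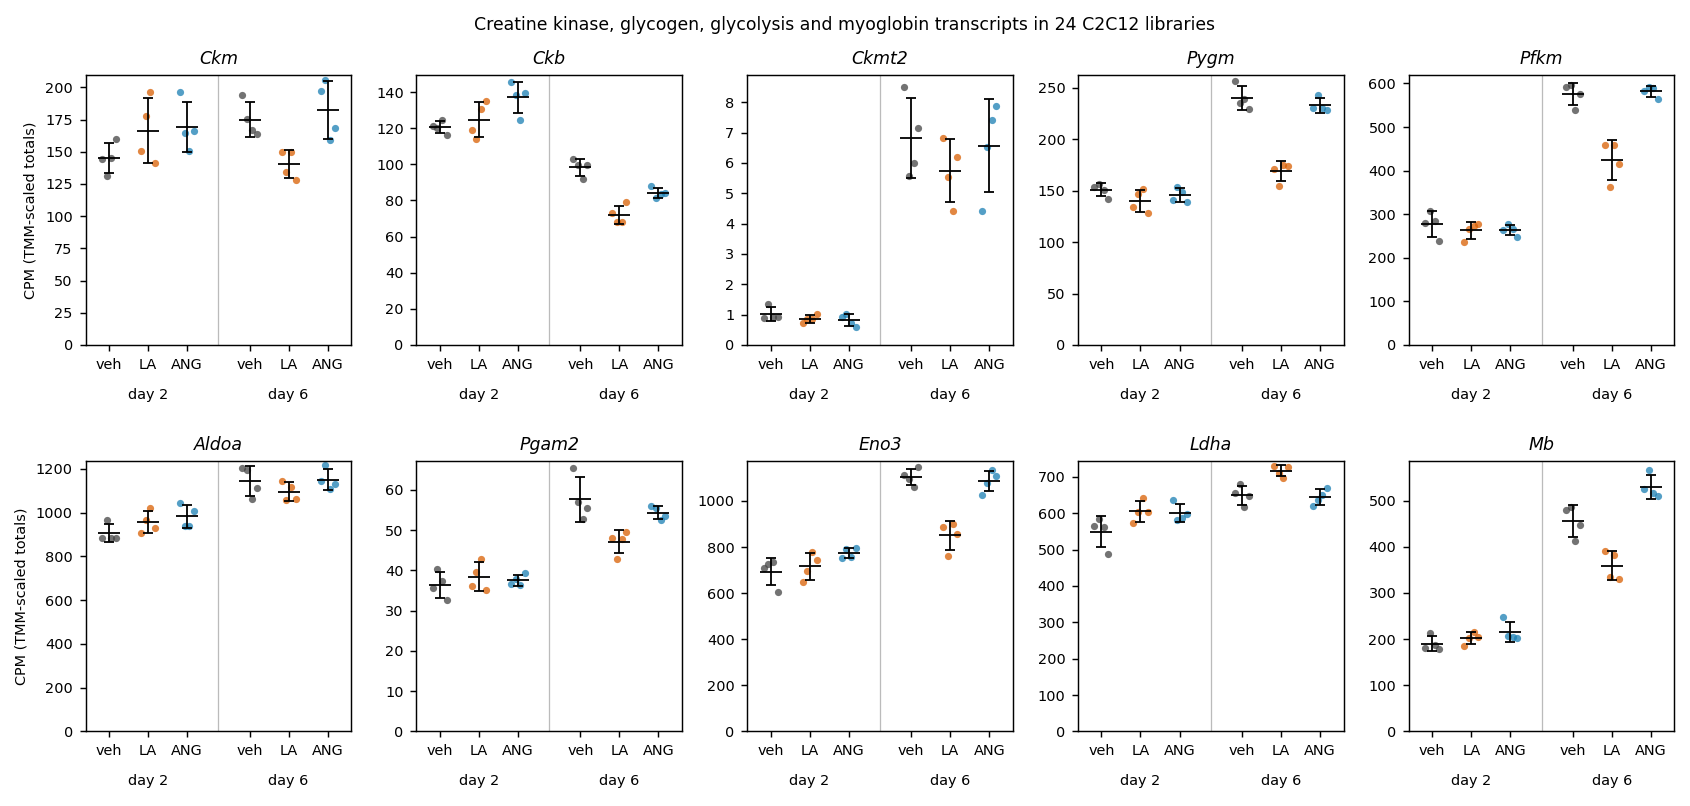
CPM of each gene in all 24 libraries (points), with the group mean and SD (bars), for vehicle (grey), LA (orange) and ANGPTL4 (blue) at day 2 and day 6; every axis starts at 0. At day 6 the LA points lie below the vehicle points for Ckm, Ckb, Pygm, Pfkm, Pgam2, Eno3 and Mb, and above them for Ldha.

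At day 6, LA lowered 7 of the 10 genes and raised 1. The 8 calls compare with 17.2% of all genes (9.38% lower and 7.83% higher), and the members' median log2FC was -0.33 against -0.0096 over all genes. In each of the 8 called genes LA libraries lay wholly to one side of the vehicle libraries in all 16 pairings, as for 22.7% of all genes. LA and ANGPTL4 were compared with the same vehicle libraries.

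Pygm fell most. Vehicle libraries held 256, 235, 239 and 229.8 CPM and LA libraries 171, 155, 175 and 174 CPM. All vehicle libraries were above all LA libraries. The log2FC was -0.51 (SE 0.05, adjusted p = 2.33e-08), a change of -29.7%. Every fit tried kept the call.

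Pfkm held 591, 597, 539.7 and 577 CPM with vehicle and 459, 362, 459 and 415 CPM with LA (log2FC -0.44, SE 0.07, adjusted p = 1.40e-05). LA replicate 2 was the lowest library, and all 4 were below every vehicle library. Eno3 held 1115, 1094, 1059 and 1147 CPM with vehicle and 886, 761, 901 and 858 CPM with LA (log2FC -0.37, SE 0.06, adjusted p = 1.90e-05). Here too LA replicate 2 was lowest, and the groups did not overlap. Pgam2 was at 57.7 ± 5.56 CPM with vehicle and 47.1 ± 2.92 CPM with LA (log2FC -0.29, SE 0.07, adjusted p = 0.00314). Without vehicle replicate 1, which was the highest library, its adjusted p was 0.0503.

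Both cytosolic creatine kinases were lower with LA. Ckb held 103, 99.4, 91.9 and 99.6 CPM with vehicle and 72.9, 68.2, 68.3 and 79.0 CPM with LA (log2FC -0.45, SE 0.06, adjusted p = 1.03e-06). The highest LA library was below the lowest vehicle library. Ckm held 194, 175, 167 and 164 CPM with vehicle and 149.6, 134, 149.7 and 128 CPM with LA (log2FC -0.32, SE 0.11, adjusted p = 0.0425). The groups did not overlap, but the Ckm call held in only 1 of 8 fits without a library and was lost with library totals alone and with no filter on low counts. Ckmt2 was not called: 6.81 ± 1.32 CPM with vehicle and 5.75 ± 1.03 CPM with LA (log2FC -0.22, 95% interval -0.56 to 0.11).

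Myoglobin held 480.0, 486, 412 and 446 CPM with vehicle and 392, 334, 382 and 329.6 CPM with LA (log2FC -0.34, SE 0.07, adjusted p = 0.000673). All LA libraries were below all vehicle libraries. Ldha was the only one of the 10 that was higher: 656, 679, 617 and 647 CPM with vehicle against 729.5, 712, 698 and 728 CPM with LA. The groups did not overlap, and the change was small (log2FC 0.14, SE 0.05, adjusted p = 0.0472). It lost the call in 6 of 8 fits without 1 library and with the replicate block (adjusted p = 0.0645). Aldoa was not called (log2FC -0.06, 95% interval -0.17 to 0.05). Leaving out vehicle replicate 1 reduced the 8 calls to 5, the lost ones being Ckm, Pgam2 and Ldha. Without the 4 libraries that lay apart 6 calls were left, with adjusted p = 0.108 for Ckm and 0.0664 for Ldha.

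**Figure D3:**
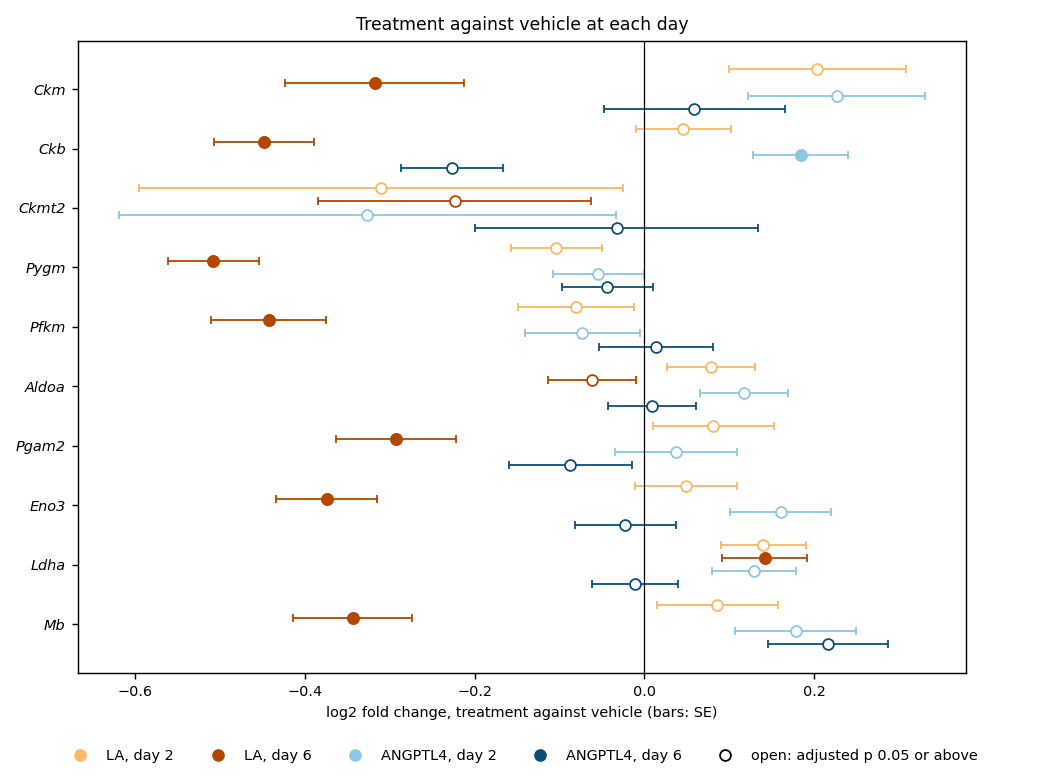
Log2 fold change of each gene for LA and ANGPTL4 against vehicle at day 2 and day 6 (points, with SE bars; filled where adjusted p is under 0.05). The 7 filled points to the left of 0 and the filled Ldha point are LA at day 6, and the one other filled point is Ckb with ANGPTL4 at day 2.

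The contractile lists moved the same way at day 6. Of 14 myotube markers, 12 were called lower with LA and 0 higher, and their summed level was 24889 to 28645 CPM with LA and 34227 to 38908 CPM with vehicle. Of 13 fast fibre genes 12 were lower, and of 12 slow fibre genes 9 were lower. Of 8 myoblast and reserve cell markers 4 were higher and 3 lower, with a summed level of 1792 to 1942 CPM with LA and 2093 to 2202 CPM with vehicle. Of 10 proliferation markers 0 were higher and 0 lower. Of 8 fibroblast markers tested 5 were higher, with a summed level of 12439 to 14995 CPM against 10375 to 12016 CPM, and Thy1 was not in the table. Of 8 adipocyte markers looked for, Pparg and Lpl were in the table, both called higher, with a sum of 34.0 to 56.1 CPM against 8.92 to 14.5 CPM, and Adipoq, Fabp4, Plin1, Cfd, Lep and Cidec were not. At day 2 the sum of Pparg and Lpl was higher than at day 6, at 62.6 to 83.7 CPM with LA and 48.8 to 70.1 CPM with vehicle. The part of these shifts in the values of the 10 genes was not tested.

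Other genes of the same pathways are given beside the 7.83% of all genes that were higher and the 9.38% that were lower with LA at day 6. Among 8 further genes of creatine and adenylate metabolism, 0 were higher and 2 lower: Adssl1, the muscle adenylosuccinate synthase, which acts on IMP on the way to AMP (log2FC -0.57, adjusted p = 1.55e-05), and adenylate kinase Ak1 (-0.26, adjusted p = 0.00155). Among 19 other glycogen genes 1 was higher and 3 lower, a share called near that of all genes. Gys1, muscle glycogen synthase, was at 161 ± 5.31 CPM with vehicle and 116 ± 7.50 CPM with LA (log2FC -0.47, adjusted p = 8.76e-08), while Ppp1r3c, a subunit that targets a phosphatase to glycogen, rose from 1.76 ± 0.256 to 4.25 ± 0.625 CPM (log2FC 1.28, adjusted p = 0.000107). Gyg, which primes glycogen, fell by 0.21 on the log2 scale.

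Among 23 other glycolysis genes, 5 were higher with LA and 2 lower. Hk2, the hexokinase of muscle, fell from 107 ± 9.31 to 84.1 ± 6.52 CPM (log2FC -0.34, adjusted p = 0.00145), and Bpgm by 0.30. Pfkl, the liver-type phosphofructokinase subunit, rose from 83.1 ± 4.18 to 116 ± 9.36 CPM (log2FC 0.48, adjusted p = 3.07e-07). Pgam1, the non-muscle mutase, rose by 0.29 (adjusted p = 0.0161), Aldoc by 0.71 (adjusted p = 0.0241) and Pfkfb3, which makes an activator of phosphofructokinase, by 0.35 (adjusted p = 0.00463). Fbp2, the muscle fructose bisphosphatase that opposes phosphofructokinase, was called higher at very low counts, 0.170 ± 0.245 CPM with vehicle and 1.45 ± 0.268 CPM with LA (adjusted p = 0.000111). Gapdh, Pgk1, Tpi1 and Pkm were not called. Of 9 transporter genes, Slc16a1, a lactate carrier, rose (log2FC 0.36, adjusted p = 0.000584) and 0 fell.

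The ratio of a muscle isoform to its partner within a library does not depend on the scaling of totals, and its change is what can be read. Pfkm/Pfkl was 3.16 ± 0.187 at day 2 and 6.93 ± 0.204 at day 6 in vehicle, and 3.70 ± 0.670 with LA and 7.56 ± 0.569 with ANGPTL4 at day 6. All 4 LA libraries were below all vehicle and ANGPTL4 libraries of that day. Pygm/Pygb was 4.22 ± 0.367 with vehicle and 2.67 ± 0.165 with LA, Eno3/Eno1 2.90 ± 0.200 and 1.94 ± 0.217, and Pgam2/Pgam1 1.39 ± 0.0487 and 0.934 ± 0.0895. In these 4 ratios the LA and vehicle libraries of day 6 did not overlap, and in Ckm/Ckb and Ldha/Ldhb they did.

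Of 9 such ratios, 6 did not overlap between LA and vehicle at day 6 and 2, Pfkm/Pfkl and Pgam2/Pgam1, at day 2. For ANGPTL4 it was 0 at day 2 and 1, Ckm/Ckb, at day 6. The 6 with LA at day 6 were the 4 given above, Pfkm/Pfkp and Aldoa/Aldoc, all lower with LA, so Pfkm is in 2 of them. Aldoa itself was not called, and Aldoc had 12 to 24 counts a library with vehicle and 18 to 40 with LA. The log2 difference of Pgam2/Pgam1 with LA was -0.46 at day 2 and -0.58 at day 6. How often other pairs of genes do not overlap was not computed. Each ratio without overlap gave p = 0.0286 by a 2-sided exact permutation test, the smallest that 70 splits of 4 against 4 allow. Over the 63 ratio tests the adjusted p was then 0.0667, so 0 passed 0.05. Ckm/Ckb in vehicle was 1.20 ± 0.118 at day 2 and 1.78 ± 0.101 at day 6, again without overlap. Between the days in vehicle 6 of the 9 ratios did not overlap, and Pgam2/Pgam1, Aldoa/Aldoc and Ldha/Ldhb did. Of those 6, Ckm/Ckmt2, which sets 2 muscle creatine kinases against each other, fell (log2 difference -2.43). Ckm/Ckb, Eno3/Eno1, Pygm/Pygb, Pfkm/Pfkl and Pfkm/Pfkp rose, so Pfkm is in 2 of them. Ldha/Ldhb was 80.7 ± 19.5 at day 2 and 57.2 ± 2.95 at day 6. How reads from near-identical copies were counted is not described, so Eno1, Pgam1, Aldoa and Ldha, which have processed copies in the mouse genome, are uncertain.

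**Figure D4:**
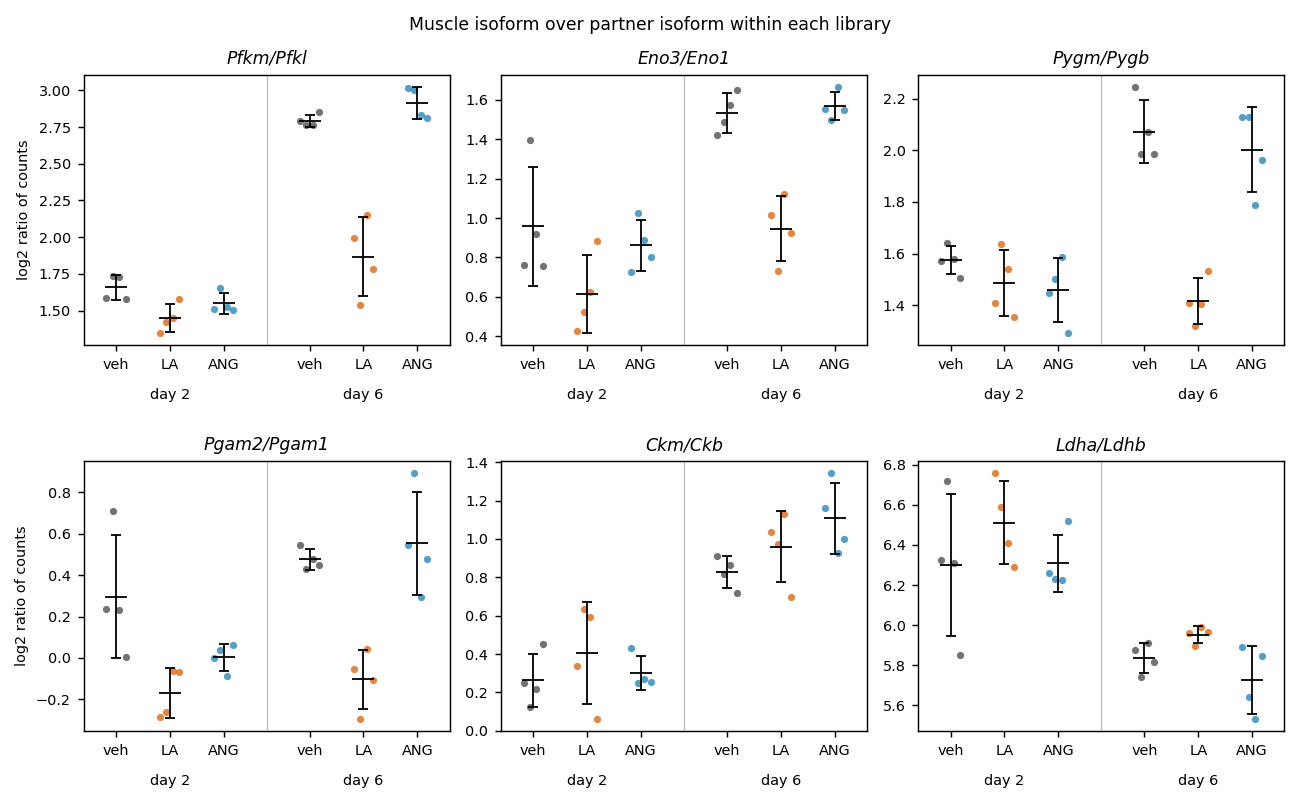
Log2 ratio of counts of a muscle isoform over its partner in each of the 24 libraries (points, with group mean and SD), for vehicle (grey), LA (orange) and ANGPTL4 (blue). At day 6 the LA points of Pfkm/Pfkl, Eno3/Eno1, Pygm/Pygb and Pgam2/Pgam1 lie below all vehicle points, and those of Ckm/Ckb overlap them.

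At day 2, LA changed 0 of the 10 genes, against 15.1% of all genes called (8.27% higher, 6.82% lower). By unadjusted p under 0.05 there was 1, Ldha, against 3833 of 12994 genes, and DESeq2 called 0 members and limma-voom 1. Ldha was at 549.8 ± 41.8 CPM with vehicle and 606 ± 28.5 CPM with LA (log2FC 0.14, adjusted p = 0.0545). Vehicle and LA libraries overlapped for every member, and did not for 14.1% of all genes. The share of all genes called rests in part on single libraries: the 1961 calls became 632 without LA replicate 3 and 1109 without vehicle replicate 4. The largest difference after Ckmt2 was that of Ckm, at 150.3, 177, 197 and 141 CPM with LA and 144, 131, 145 and 159.5 CPM with vehicle (log2FC 0.20, 95% interval -0.02 to 0.42). Partners outside the 10 did change at day 2: Pgam1 rose from 29.8 ± 3.58 to 43.3 ± 4.59 CPM (adjusted p = 0.000307) and Eno1 from 359.8 ± 61.0 to 469 ± 45.0 CPM (adjusted p = 0.00831). The vehicle library of replicate 2 was lowest for both, at 24.7 and 275 CPM.

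The LA effect at day 6 differed from that at day 2 for 7 of the 10 members, all toward a lower value, against 19.7% of all genes (8.68% higher, 11% lower). The difference was -0.52 for Ckm (SE 0.15, adjusted p = 0.0174), -0.49 for Ckb, -0.43 for Mb (adjusted p = 0.00341), -0.42 for Eno3 (adjusted p = 0.000684), -0.40 for Pygm (adjusted p = 0.000362), -0.37 for Pgam2 (adjusted p = 0.00865) and -0.36 for Pfkm (adjusted p = 0.00836). The same contrast is the difference between the day 2 to day 6 change with LA and with vehicle. For Ldha it was 0.0018 (95% interval -0.15 to 0.15). Aldoa (-0.14) and Ckmt2 (0.09, 95% interval -0.58 to 0.76) were not called. Without vehicle replicate 1 of day 6 the Ckm adjusted p was 0.0509. Without the 4 libraries that lay apart 5 members were called, and Ckm (-0.37, adjusted p = 0.112) and Pfkm (-0.31, adjusted p = 0.0786) were not.

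ANGPTL4 changed 1 of the 10 genes at day 2, against 9.82% of all genes (3.86% higher, 5.96% lower). By unadjusted p under 0.05 there were 6 members, against 3389 of 12994 genes. These were Ckm, Ckb, Aldoa, Eno3, Ldha and Mb, all higher with ANGPTL4. Ckb held 121, 120.1, 125 and 116 CPM with vehicle and 146, 138, 125 and 139 CPM with ANGPTL4. The lowest ANGPTL4 library was just above the highest vehicle library (log2FC 0.18, SE 0.06, adjusted p = 0.0336). DESeq2 did not call it, and it was lost in 7 of 8 fits without 1 library and without the 4 that lay apart (adjusted p = 0.0680). Over all genes the 1276 calls became 712 without vehicle replicate 4 and 821 without ANGPTL4 replicate 4. The groups did not overlap for Ckb and Eno3, 2 of 10 members against 14.6% of all genes, and Eno3 was at 693 ± 58.9 and 775 ± 22.8 CPM (log2FC 0.16, adjusted p = 0.0792). Myotube markers summed to 25827 to 26664 CPM with ANGPTL4 at day 2 and 31965 to 36538 CPM with vehicle. Of the 14, 2 were called lower and 0 higher, and their median log2FC was 0.043, against 0.023 over all genes. The sum is weighted to abundant markers such as Ttn (6402 to 17801 CPM over all libraries). With LA at day 2 the sum was 24700 to 32196 CPM. The part of these markers in the members' values was not tested.

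At day 6, ANGPTL4 changed 0 of the 10 genes, when 0.0231% of all genes, 3 in number, were called (0.0154% higher, 0.0077% lower). At an unadjusted p under 0.05 there were 2, Ckb and Mb, against 1513 of 12994 genes, and DESeq2 and limma-voom called 0. A fit of only these 8 libraries called those 2 members, among 83 of 12132 genes. The fit without the 4 libraries that lay apart called 131 genes and still 0 members. Myoglobin held 526, 567, 517 and 509.7 CPM with ANGPTL4 and 480.0, 486, 412 and 446 CPM with vehicle, with no overlap (log2FC 0.22, SE 0.07, adjusted p = 0.206). Ckb was at 84.2 ± 2.91 and 98.5 ± 4.73 CPM, also with no overlap (log2FC -0.23, SE 0.06, adjusted p = 0.124). Groups without overlap made up 8.24% of all genes. For Pygm the log2FC was -0.04 (95% interval -0.16 to 0.07) and for Pfkm 0.01 (-0.13 to 0.16).

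LA was set against ANGPTL4 directly. At day 2, 0 of 10 members differed, against 0.0924% of all genes (0.0616% higher, 0.0308% lower), and 0 did not overlap, against 5.03%. At an unadjusted p under 0.05 there was 1 member, against 1607 of 12994 genes, and DESeq2 and limma-voom called 0 members. The count of genes called, 12, rests on single libraries: it was 159 without LA replicate 3, 363 without LA replicate 4 and 102 without ANGPTL4 replicate 4. It was 406 without the 4 libraries that lay apart, and 0 members were called in this last fit. At day 6, 7 of 10 differed, 6 lower and 1 higher with LA, against 13.9% of all genes (6.6% higher, 7.32% lower). Myoglobin had the largest difference, 359 ± 32.0 CPM with LA and 529.8 ± 25.4 CPM with ANGPTL4 (log2FC -0.56, SE 0.07, adjusted p = 1.46e-06). Pygm (-0.46) and Pfkm (-0.46) followed, then Ckm (-0.38, adjusted p = 0.0208), Eno3 (-0.35) and Ckb (-0.22, adjusted p = 0.0116), and Ldha was higher by 0.15 (adjusted p = 0.0368). Pgam2 did not overlap but was not called (-0.21, adjusted p = 0.0591). Without LA replicate 2, or without ANGPTL4 replicate 1, the count was 4, and without the 4 libraries that lay apart it was 5, with Ckm and Ldha lost.

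The order of the 6 groups differed between members. Ckb was highest in ANGPTL4, LA and vehicle at day 2, which overlapped in turn, and lower in vehicle, ANGPTL4 and LA at day 6, where no neighbours overlapped. Mb had the 3 day 6 groups apart from each other and above day 2, with ANGPTL4 highest, then vehicle, then LA. Pfkm and Pgam2 had vehicle and ANGPTL4 of day 6 together at the top, LA of day 6 apart below them, and the 3 day 2 groups overlapping in turn at the bottom. Pygm and Eno3 had the same order at the top, but there LA at day 6 overlapped the next group, vehicle and ANGPTL4 at day 2 respectively. Ckmt2 and Aldoa split by day alone, and each group of Ckm overlapped the next in order. Ldha was highest with LA at day 6, apart from the rest, and the other 5 groups overlapped in turn.

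The genes nearest each member in the pattern of the 6 group means were found by the root mean square difference of centred log2 CPM over 10272 other genes (10273 for Ckmt2) with a mean of at least 5 CPM. Eno3 was nearest to Acta1, skeletal muscle actin (0.0301, against a median of 0.282 over all genes), then Msln and Stom. Pfkm was nearest to Mypn, Tbx15 and Myoz2 (0.0406, median 0.511), and Mb to Aldh3b1, Smpx and C130080G10Rik (0.0513, median 0.595). Pygm lay nearest to Gfod1, Slc9a3r2 and Baalc, Pgam2 to Bcl2l13, Stradb and Sema7a, and Ckm to Fstl3, Wbp1 and Aamdc. Ckb lay nearest to Rps6ka2, Ccnd3 and Notch3, and Ckmt2 to Hspb7, Tspan8 and Tceal7. Aldoa lay nearest to Bid, Saraf and Zfp622, and Ldha to Efemp2, Mapk8ip1 and Lrrc42. Among the members, Pgam2 and Eno3 were the closest pair (0.0630) and Ckb and Ckmt2 the farthest (1.62). This is a description over 6 means, which for a gene that varies little many genes match.

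Together the 10 genes took 0.308% ± 0.0205 of all counts in vehicle at day 2 and 0.441% ± 0.0184 at day 6. With LA at day 6 the share was 0.388% ± 0.0163, lower in every library than with vehicle (difference -0.0533 percentage points, 2-sided exact permutation p = 0.0286, adjusted p = 0.04 over 7 comparisons). With ANGPTL4 it was 0.443% ± 0.00947 at day 6 (p = 0.8, exact). At day 2 it was 0.328% ± 0.0221 with LA and 0.339% ± 0.00743 with ANGPTL4. The ANGPTL4 difference at day 2, 0.0310, had an exact p of 0.0286 (adjusted 0.04), and with TMM-scaled totals 0.0571.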

How the data were processed

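The deposited values were whole-number counts per gene symbol in 24 libraries, made by the authors from QuantSeq 3′ libraries of total RNA (integrity number above 7), per the labels' protocols. The submitters' processing notes name mouse build mm39, the trimmer Trimmomatic, the aligner STAR 2.7.1a, the counter HTSeq 0.9.1 and both DESeq and DESeq2, without order or settings. Counting rules, strand and how low genes were removed are not given in the sources used here; the lowest gene total was 51 counts. Genes were filtered with filterByExpr (1699 removed) and fitted together as 6 group means with edgeR 4.0.16 in R 4.3.3, with 18 residual degrees of freedom and a common coefficient of variation of 6.51%. SE values are approximate, from the fold change and its F statistic. The edgeR fit was tested on simulated data. Depth leaves few counts for Ckmt2 alone among the members. Ratios used counts plus 0.5.

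Members and lists (creatine and adenylate, glycogen, glycolysis, transport, hypoxia targets, fibre, regulator and citric acid cycle genes, cell markers) were chosen with earlier results of these data known. Named genes were the members, their partner isoforms, up to 3 called genes of each pathway list in each direction by size of change, and the 3 genes nearest each member in group pattern; Gapdh, Pgk1, Tpi1, Pkm and Pfkfb3 were named after their values were seen, and 1 gene that the rule names is not reported here. Alternatives were DESeq2 1.42.0 and its size factors, library totals alone, limma-voom (limma 3.58.1), no filter, a filter of 5 CPM in 4 libraries, only the compared groups, a replicate block and each library left out; after seeing the data, the 2 libraries farthest from their groups, and all 4 that lay apart, were left out together. Promoter sequences are RefSeq's, in GRCm38.p6, and no coordinates of the counts' build were used.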

Additional observations from a re-analysis of the deposited data

Results flagged for a closer look

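In 8 of 120 sets of 4 libraries, 1 library lay so far from the others that its gap took more of the range than Dixon's 95% limit allows, and chance alone gives this in about 1 in 20 sets. Vehicle replicate 2 of day 2 was highest for Ckmt2, at 1.36 CPM, and for Aldoa, at 968 CPM. LA replicate 2 of day 6 was lowest for Pygm, at 154.7 CPM, and ANGPTL4 replicate 2 of day 6 was highest for Pygm, at 243 CPM. ANGPTL4 replicate 1 of day 2 was highest for Mb, at 247 CPM, and for the log2 ratio Ckm/Ckb, at 0.43. In the same group replicate 2 was highest for the log2 ratio Pfkm/Pfkl, at 1.66, and replicate 4 for Ldha/Ldhb, at 6.52.

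The LA effect differed between day 6 and day 2 by edgeR's test of the difference for 7 of the 10 genes, against 19.7% of all genes. On the log2 scale it was -0.52 for Ckm, -0.49 for Ckb, -0.43 for Mb, -0.42 for Eno3, -0.40 for Pygm, -0.37 for Pgam2 and -0.36 for Pfkm. Without the 4 libraries that lay apart, Ckm and Pfkm were not called. The ANGPTL4 effect differed between the days for Ckb alone of the 10, by -0.41, against 0.277% of all genes. That call was lost in most fits without 1 library.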

How the results depend on the processing

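Of 2140 recomputed single-gene values, 2004 kept their direction and side of the threshold, 73 lost the call, 14 gained it and 49 changed sign. No called value changed sign. Counts of members called that moved by over 1.5 times are given next, with some smaller moves, and the cause was not tested. Day 6 against day 2 went from 10 to 9 in vehicle with DESeq2 size factors and library totals alone, and from 9 to 10 in LA with library totals alone, the 5 CPM filter, limma-voom and DESeq2. LA at day 2 went from 0 to 1 with library totals alone and with limma-voom, and 0 to 1 without 1 library. LA at day 6 went from 8 to between 5 and 7 without 1 library, with 5 without vehicle replicate 1, and to 7 with library totals alone and with no filter. ANGPTL4 at day 2 went from 1 to 0 with DESeq2 size factors, the filter of 5 CPM, only the compared groups, DESeq2 and without the 4 libraries that lay apart, and 0 to 1 without 1 library. ANGPTL4 at day 6 went from 0 to 2 with only the compared groups and stayed 0 without 1 library. LA against ANGPTL4 at day 6 went from 7 to between 4 and 7 without 1 library. The day difference of the ANGPTL4 effect went from 1 to 0 with the replicate block, limma-voom and without those 4, and 0 to 1 without 1 library. The ANGPTL4 difference in the share of counts at day 2 was 0.0257 with TMM-scaled totals.

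Replicate numbers did not pair the libraries: same-numbered libraries correlated from -0.309 to 0.303, 8 of 60 over 0.1, and 4 of 24 libraries matched their own number best. With the replicate block LA at day 6 called 7 members, and an exact permutation test of the share of counts by sign flips within numbers gave p = 0.125, the smallest that 4 pairs give.

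Every sign change was of an uncalled value near 0. Without the 2 libraries farthest from their groups (LA replicate 3 of day 2 and ANGPTL4 replicate 1 of day 6), ANGPTL4 at day 6 gave 0.10 for Ckmt2, 0.0040 for Eno3 and 0.0078 for Ldha, and LA against ANGPTL4 at day 2 gave -0.0043 for Pgam2 and -0.0067 for Ldha. Without all 4 that lay apart, ANGPTL4 at day 6 gave 0.10 for Ckmt2, 0.0055 for Eno3 and 0.0093 for Ldha, LA against ANGPTL4 at day 2 gave -0.12 for Ckmt2 and -0.0235 for Ldha, and LA at day 2 gave -0.0043 for Eno3. Pfkm in LA against ANGPTL4 at day 2 was 0.0064 with the 5 CPM filter and 0.0037 with only the compared groups, and the day difference of ANGPTL4 for Pygm was -0.0203 with library totals alone. Without 1 library, ranges of log2 values were as follows. LA at day 2 gave -0.000207 to 0.0815 for Ckb and -0.0101 to 0.0916 for Eno3. ANGPTL4 gave -0.0138 to 0.0853 for Pgam2 at day 2. ANGPTL4 at day 6 gave -0.0256 to 0.0356 for Aldoa, -0.00115 to 0.125 for Ckm, -0.132 to 0.101 for Ckmt2, -0.0415 to 0.00787 for Eno3, -0.0356 to 0.0154 for Ldha and -0.0167 to 0.0360 for Pfkm. LA against ANGPTL4 at day 2 gave -0.113 to 0.0642 for Ckm, -0.0848 to 0.120 for Ckmt2, -0.0168 to 0.0457 for Ldha, -0.0339 to 0.0506 for Pfkm and -0.0149 to 0.0876 for Pgam2. Day differences gave -0.100 to 0.236 for Ckmt2 and -0.0229 to 0.0543 for Ldha with LA, and -0.0148 to 0.127 for Mb and -0.00166 to 0.0562 for Pygm with ANGPTL4.

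Over all genes, ANGPTL4 at day 6 called 3 genes, 83 with only the compared groups and 47 with DESeq2. LA at day 2 called 1961 and 422, and ANGPTL4 at day 2 1276 and 685, with all and with only the compared groups. The share of calls that were higher was 45.5% for LA at day 6 and 59.1% with library totals alone, 54.8% and 68.2% for LA at day 2, and 39.3% and 54.2% for ANGPTL4 at day 2, where DESeq2 size factors gave 27.1%. Depth limits Ckmt2 most.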

Other observations

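Other lists are given beside all genes, of which 7.83% were higher and 9.38% lower with LA at day 6, and 25.2% higher and 20.5% lower at day 6 in vehicle. With LA, of 19 hypoxia-inducible factor targets outside glycolysis, 9 were higher and 2 lower. Pdk1, the kinase that shuts pyruvate dehydrogenase, rose from 77.6 ± 5.99 to 112 ± 8.27 CPM (log2FC 0.53, adjusted p = 3.72e-05), Bnip3, a mitophagy receptor, by 0.50 and Car9, a carbonic anhydrase, by 0.55, while Car12 fell by 0.87 and Egln3 by 0.22 on the log2 scale. In vehicle 13 of the 19 were higher and 1 lower at day 6 than at day 2. Of 14 muscle regulators, 2 were higher with LA (Hif1a by 0.22 and Myf5 by 0.40) and 7 lower, among them Mef2c, from 783 ± 17.1 to 622 ± 36.5 CPM (log2FC -0.33, adjusted p = 0.00141), and Mef2d (-0.33, adjusted p = 1.10e-05). Between the days in vehicle, 5 of the 14 were higher and 5 lower. Of 19 citric acid cycle genes, 2 were higher with LA and 5 lower. Between the days in vehicle, 9 of these were higher and 1 lower, a total share called near that of all genes but mostly higher.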
